A study of Mus musculus with 15 samples.

Results

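The adult auditory nerve of the mouse was compared with the nerve at postnatal day (P) 14, a stage just after the onset of hearing. The comparison used 6 of the 15 bulk RNA sequencing libraries of a developmental series that also sampled P3, P7 and P21, with 3 libraries labelled P14 and 3 labelled adult, chosen by those age labels alone. All 18536 genes of the deposited table entered, and the 16723 with a normalized read count of at least 10 in at least 3 of the 15 libraries were tested. Per the labels, the nerve was microdissected out of the cochlea, and each library holds total RNA from both cochleae of 1 mouse. The sources used here state no genotype, strain, treatment, sex, litter or adult age; the adult sample titles carry the abbreviation CTRL. Beyond these statements the design lists only 3 experimental samples per age. The p-values measure the spread between samples of the same age, estimated over all 15 libraries of the series.

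The auditory nerve is formed by spiral ganglion neurons, which carry the signal of the cochlear hair cells to the brainstem. Most of them are type I neurons, whose axons and cell bodies are wrapped by Schwann cells in the cochlea and by oligodendrocytes closer to the brain. Their precise firing depends on sodium channels clustered at nodes of Ranvier, on fast potassium channels and on HCN channels. The nerve runs through the modiolus, a bony core that holds marrow and blood vessels and is still maturing when hearing begins. A dissected nerve can therefore also carry RNA of bone, cartilage, marrow, meninges and neighbouring cochlear tissue, and markers of each were examined.

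Between 35250155 and 40848211 reads per library stood behind the values, and in the libraries compared 3 reads were worth 3.06 to 3.65 normalized counts. Libraries of one age differed by more than counting noise in every pair, so each was counted as a separate sample. The Y-linked gene Eif2s3y was low and Xist high in P14 replicate 1 and adult replicate 3, as well as in P21 replicates 1 and 2, so that each age compared held 1 library of that pattern. Markers of spiral ganglion neurons were present in every library: the summed level of 24 such genes lay between 430316 and 450627 at P14 and between 551201 and 588699 in the adult, with none listed at 0. P14 replicate 3 stood apart in markers of central glia. The sum of 17 oligodendrocyte genes reached 138361 there, against a lowest value of 49702 at P14 and a range of 47842 to 55009 in the adult.

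At a Benjamini-Hochberg adjusted p under 0.05 (limma, two-sided), 8116 genes differed between the ages, which is 48.5% of those tested. In the adult 4180 genes (25.0%) were higher and 3936 (23.5%) lower, and the median log2 fold change of all genes was 0.01. Of the 8116 genes, 1996 differed by at least 2-fold, 898 of them upward (5.37%) and 1098 downward (6.57%). For 10220 genes (61.1%) the 3 libraries of one age did not overlap the 3 of the other. These shares are the background for every gene group below: a group with shares near these in both directions is like all genes. Fold changes are on the log2(value + 1) scale and come with their standard error (SE); levels are normalized read counts, given per library in the order of replicates 1 to 3 or as mean ± SD (n = 3 per age).

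The changes went with transcript length. Among the shortest genes, the first of 5 equal groups by length, the median log2 fold change was -0.26, with 8.14% of genes higher and 33.6% lower in the adult. In the longest of these groups it was 0.33, with 45.9% higher and 12.3% lower. Across 16469 genes with a known length, which are not independent replicates, Spearman's rho between length and log2 fold change was 0.32. Each library's own rho was between -0.29 and 0.06 at P14 and between 0.23 and 0.27 in the adult. RNA quality values of the libraries were not used here, and the part of this pattern in a gene's change was not tested beyond a fit that subtracts it. That fit, chosen after the data were seen, called 4026 genes higher and 3968 lower, of which 3382 and 3289 were the same genes as before. Counts with this length correction are given in brackets beside many of the groups below.

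**Figure D1:**
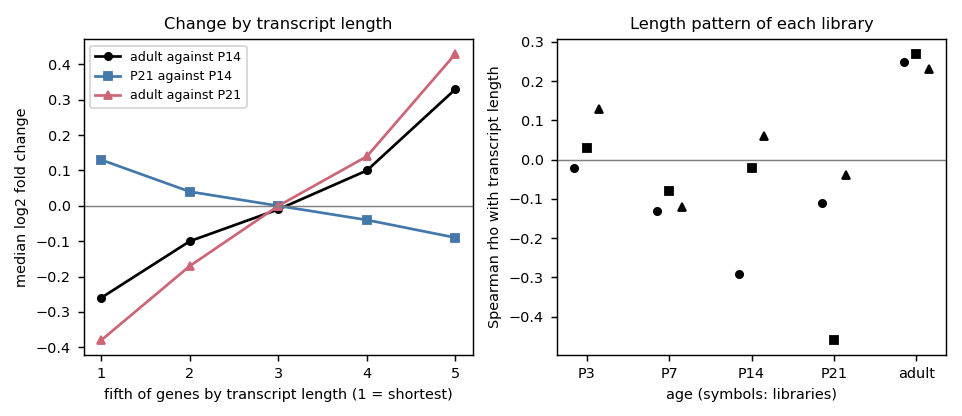
Left: median log2 fold change (y axis) in each of 5 equal groups of genes ordered by transcript length (x axis), for adult against P14, P21 against P14 and adult against P21. Right: Spearman's rho between transcript length and a library's deviation from the gene's mean over all libraries (y axis), 1 symbol per library, by age; the 3 adult libraries lie between 0.23 and 0.27 and P21 replicate 2 at -0.46.

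**Figure D2:**
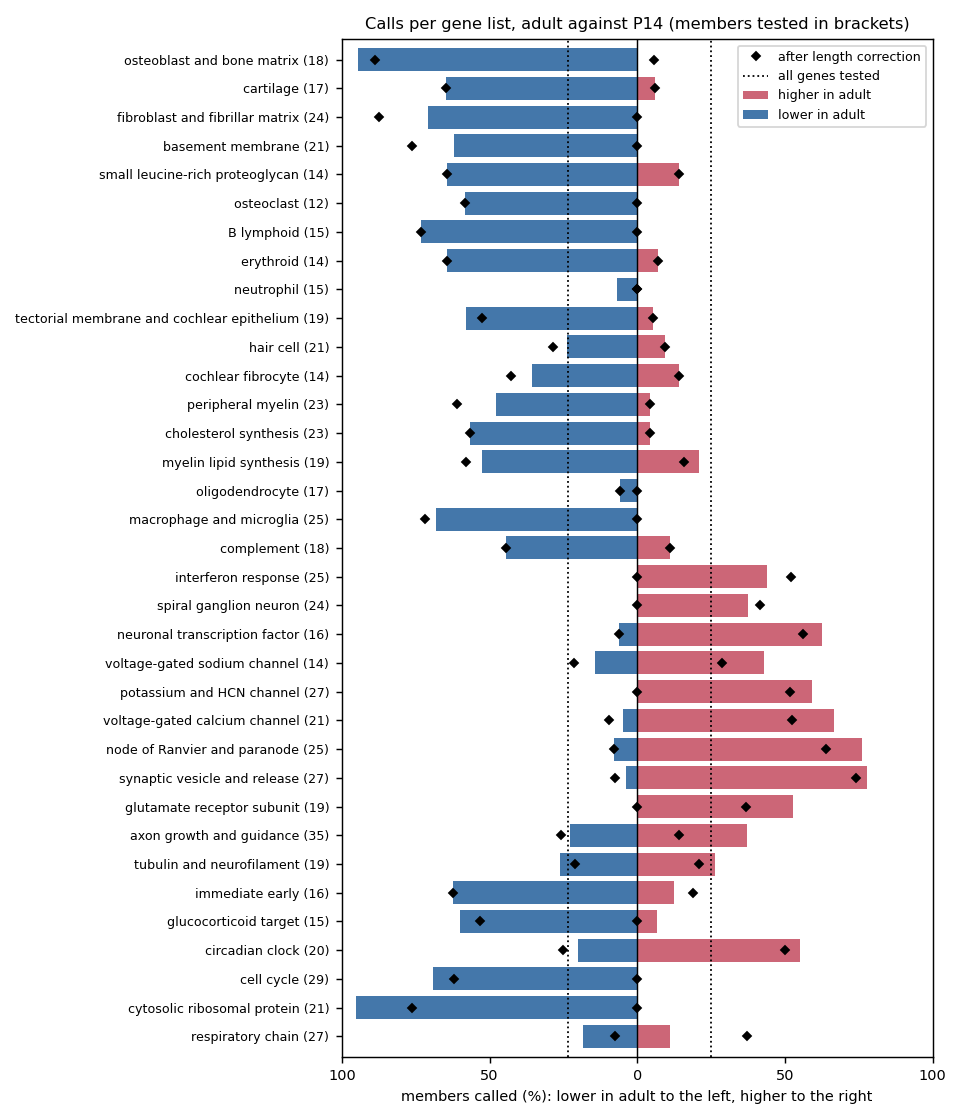
Share of members called lower (blue, to the left) and higher (red, to the right) in the adult for 35 gene lists, with the number of members tested in brackets. Diamonds give the share after length correction and dotted lines the share over all genes tested, 23.5% lower and 25.0% higher; bone, matrix and ribosomal lists extend to the left, and channel, nodal and synaptic lists to the right.

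The transcripts that fell furthest included members of the bone, cartilage and cochlear epithelium lists. By a rule on level and overlap, the 12 that fell most were Oc90, Panx3, Umodl1, Bglap2, Bglap, Ibsp, Tmprss9, Col9a1, Col22a1, Col2a1, Ifitm5 and Sapcd2. Oc90, the main protein of otoconia (chromosome 15, 65876053 to 65912287), stood at 839, 617 and 478 at P14 and at 3.12, 2.19 and 2.43 in the adult. These adult values are 3, 2 and 2 reads, and the ratio of the mean levels was 250 (95% exact Poisson interval of the adult reads 121 to 622, counting error only). Its log2 fold change was -7.47 ± 0.25 SE (limma adjusted p = 1.31e-09). Ibsp, which encodes bone sialoprotein (chromosome 5, 104299287 to 104311472), stood at 52955, 33679 and 63644 at P14 and at 953, 700 and 642 in the adult, a 64.2-fold fall (-6.00 ± 0.38 SE, adjusted p = 2.45e-07). No adult library came near a P14 library for either gene.

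Among bone matrix genes the fall was nearly general. Of 18 osteoblast and bone matrix genes 17 fell and 0 rose, with a median log2 fold change of -2.74 (with length correction 16 fell and 1 rose). Bglap, which encodes the bone hormone osteocalcin (chromosome 3, 88383495 to 88384466), went from 10329, 6180 and 14057 to 208, 56.9 and 106 (-6.47 ± 0.61 SE, adjusted p = 5.33e-06). Bglap2 is a near copy of Bglap, and reads may be shared between them. Ifitm5, a membrane protein of osteoblasts, fell 33.4-fold, Phex, an endopeptidase of bone cells that acts in phosphate balance, 12.4-fold, and Smpd3, a sphingomyelinase needed for mineralization, 9.17-fold. Col1a1, a chain of type I collagen (chromosome 11, 94936224 to 94953042), fell from 32977 ± 11899 to 2209 ± 1010 (-3.94 ± 0.42 SE, adjusted p = 1.31e-05). Spp1, which encodes osteopontin, was the member not called (0.27 on the log2 scale, adjusted p = 0.183), although its libraries did not overlap.

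Cartilage collagens fell with them. Of 17 cartilage genes 11 fell and 1 rose, with a median of -1.87 (11 and 1 with length correction). Col2a1, the principal collagen of cartilage and also part of the otic capsule (chromosome 15, 97975602 to 98004724), went from 134655, 173958 and 184950 to 4969, 4465 and 4874 (-5.10 ± 0.19 SE, adjusted p = 3.31e-09). Col9a1, a chain of the collagen that coats type II fibrils, fell from 64430 ± 9366 to 1518 ± 253, a 42.5-fold difference (adjusted p = 3.63e-11). Comp, a matrix protein of cartilage and tendon, was the member that rose, from 15.1 ± 9.59 to 47.1 ± 24.4. Its call was lost without P14 replicate 2 (limma adjusted p = 0.0756), without adult replicate 1 (0.0768) and with the replicate block (0.0668). Panx3, a channel protein of osteoblasts and chondrocytes, fell from 3054, 1961 and 3826 to 21.9, 30.6 and 14.6.

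Fibrillar and basement membrane genes were lower in the adult as well. Of 24 fibroblast and fibrillar matrix genes 17 fell and 0 rose (median -1.50; 21 and 0 with length correction). Sparc, a collagen-binding matrix protein (chromosome 11, 55394159 to 55420080), stood at 288713, 332563 and 236317 at P14 and at 28988, 27021 and 25570 in the adult (-3.38 ± 0.13 SE, adjusted p = 3.31e-09). Col3a1, a chain of reticular fibre collagen, fell 10.4-fold and Loxl1, an enzyme that crosslinks elastin, 3.38-fold. Of 21 basement membrane genes 13 fell and 0 rose (median -0.94; 16 and 0 with length correction). Col4a3 fell 5.21-fold, Col4a2 4.54-fold and Nid1, the linker nidogen, 2.58-fold, each with no overlap between the ages. Both collagen IV chains belong to sheet-forming networks around Schwann cells, vessels and epithelia.

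Small leucine-rich proteoglycans, which bind collagen fibrils and set their spacing, moved in both directions. Of 14, 9 fell and 2 rose (median -1.16; the same counts with length correction). Lum, lumican, fell from 17303 ± 1410 to 3998 ± 165 (-2.11 ± 0.11 SE, adjusted p = 4.98e-08), and Dcn, decorin, from 47962 ± 756 to 26215 ± 1619 (-0.87 ± 0.07 SE, adjusted p = 2.38e-06). Prelp, which anchors basement membranes to connective tissue, rose from 1974, 2355 and 2051 to 5084, 4687 and 6267 (1.32 ± 0.12 SE, adjusted p = 3.82e-06). Fmod, fibromodulin, rose 2.08-fold (adjusted p = 0.00212). The lowest adult values of Prelp and Fmod lay above their highest P14 values.

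Transcripts of blood-forming cells were scarcer in the adult, with wide spread between libraries. Of 15 B lymphoid genes 11 fell and 0 rose (median -2.58). Cd79b, a chain of the B cell receptor, stood at 222, 65.3 and 96.6 at P14 and at 11.4, 20.8 and 8.51 in the adult (-3.04 ± 0.62 SE, adjusted p = 0.00145). The count of 11 became 5 without P14 replicate 1, 4 without the 4 libraries low in Eif2s3y and 6 with a filter of 50. Of 14 erythroid genes 9 fell and 1 rose (median -2.52). Hbb-bs, an adult beta globin, went from 8146, 4012 and 4208 to 537, 955 and 599 (-2.93 ± 0.38 SE, adjusted p = 5.18e-05), and Alas2, the heme synthesis enzyme of red cell precursors, from 997 ± 370 to 159 ± 37.8. Sptb, erythroid beta spectrin that neurons also make, was the member that rose (2.52-fold). The erythroid count became 4 with limma-voom and 5 without the 4 libraries low in Eif2s3y, and globin reads may be shared among near copies.

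Neutrophil genes were uneven within each age. S100a8, a calcium-binding protein of neutrophils, stood at 1119, 259 and 384 at P14 and at 561, 118 and 42.5 in the adult, so that the ages overlapped (adjusted p = 0.114). Of 15 such genes 1 fell (Fcnb, adjusted p = 0.0418) and 0 rose. Fcnb had 13, 0 and 0 reads in the adult libraries, and its call was lost without P14 replicate 1 (0.191), adult replicate 2 (0.145) or adult replicate 3 (0.142), among other alternatives. The list's count was 8 without adult replicate 1, 7 with the replicate block and 0 with length correction, quantile normalization, edgeR or limma-voom. Osteoclasts, the bone-resorbing relatives of macrophages, gave 7 of 12 genes lower and 0 higher (median -1.27). Ctsk, the collagen-degrading protease of osteoclasts, fell from 3924, 3952 and 3269 to 571, 563 and 407 (-2.86 ± 0.21 SE, adjusted p = 7.98e-07). Mmp14, a membrane protease also made by fibroblasts, fell 3.08-fold. The count of 7 became 4 without P14 replicate 1, P14 replicate 3 or adult replicate 2 in turn, 4 with only the ages compared in the fit, and 3 with limma-voom or without the 4 libraries low in Eif2s3y. Of 7 T and NK cell genes tested, Cd4 and Il7r fell and 0 rose, Il7r not without the 4 libraries low in Eif2s3y (0.0634). In bulk RNA, fewer cells of a type and less RNA per cell cannot be told apart, here or for any group below.

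**Figure D3:**
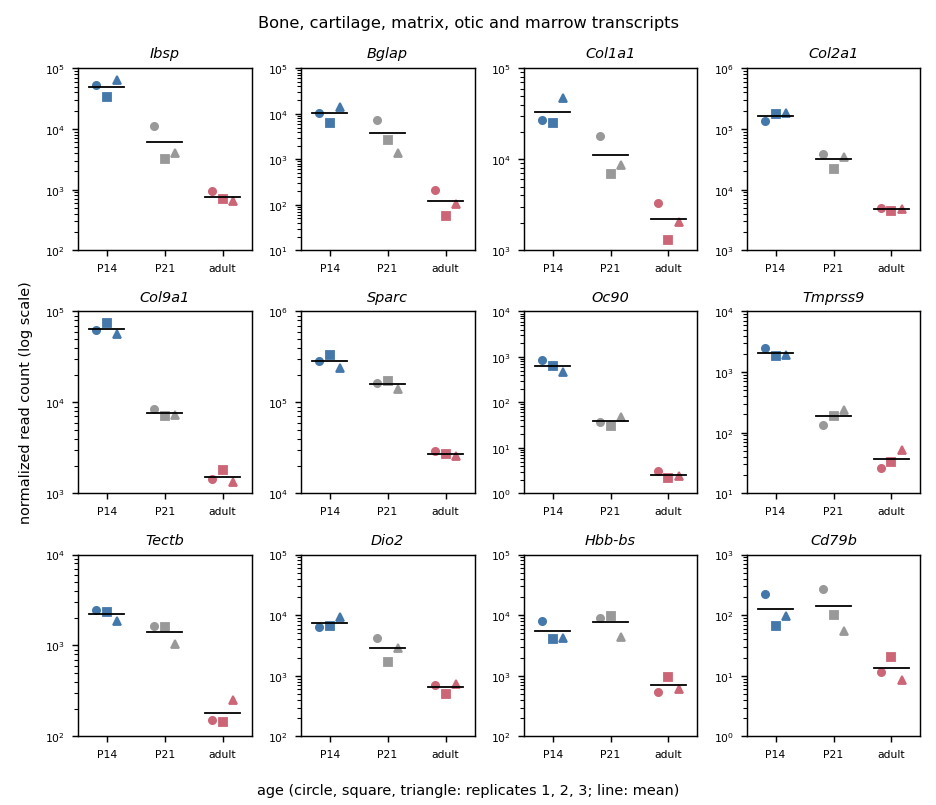
Normalized read counts (y axis, log scale) of 12 genes of bone, cartilage, matrix, otic epithelium and marrow at P14, P21 and adult (x axis), 1 symbol per library and a line at the mean. In all 12 genes every adult library lies below every P14 library; Oc90 goes from a mean of 645 at P14 to 2.58 in the adult and Hbb-bs from 5455 to 697.

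Secreted and epithelial genes of the cochlea fell too. Of 19 tectorial membrane and cochlear epithelium genes 11 fell and 1 rose (median -0.73; 10 and 1 with length correction). Tectb, beta-tectorin of the tectorial membrane, went from 2431, 2320 and 1852 to 151, 145 and 252 (-3.62 ± 0.24 SE, adjusted p = 3.94e-07). Ceacam16, another protein of that membrane, stood at 53013 ± 15452 at P14 and 19806 ± 6257 in the adult, a 2.69-fold fall (adjusted p = 0.00131). Tmprss9, a transmembrane serine protease, went from 2484, 1814 and 1927 to 26, 32.8 and 51, and Umodl1, a zona pellucida domain protein, from 808, 605 and 759 to 10.4, 1.09 and 15.8. Lgr5, a Wnt coreceptor of supporting cells, was the member that rose, from 978, 957 and 977 to 1337, 1957 and 1653 (0.75 ± 0.13 SE, adjusted p = 0.000605).

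Hair cell genes moved in both directions. Of 21, 5 fell (23.8%), close to the background for falls, and 2 rose (9.52%), below the 25.0% of all genes. The median was -0.01, and with length correction 6 fell and 2 rose, with a median of -0.38. Ocm, the calcium buffer of outer hair cells, fell from 3836, 2999 and 1914 to 211, 177 and 876 (-3.13 ± 0.58 SE, adjusted p = 0.00079), and Chrna9, a subunit of the receptor for efferent input, from 135, 113 and 98.7 to 13.5, 33.9 and 58.3. The other falls were Chrna10, Slc26a5 and Pou4f3. Pou4f3 (adjusted p = 0.0276) lost its call without P14 replicate 1 (0.101), P14 replicate 2 (0.0685), adult replicate 1 (0.101) or adult replicate 2 (0.123), and Chrna10 with only the ages compared (0.0572). Cdh23, a tip link cadherin, rose 2.33-fold and Ush1c, a scaffold of the hair bundle, 1.47-fold. Without adult replicate 3 the number of falls was 8, and without adult replicate 1 the number of rises was 6; with only the ages compared 3 fell. Of 14 genes of cochlear fibrocytes, cells of the lateral wall and spiral limbus, 5 fell and 2 rose. Otos fell 2.02-fold and Pou3f4, their transcription factor, 1.57-fold. Coch, the abundant matrix protein cochlin, was at 427460 ± 155803 and 347844 ± 77805 with overlapping libraries (adjusted p = 0.443).

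Slc4a11, a membrane transporter of the inner ear and cornea (chromosome 2, 130684108 to 130697519), rose against that background from 727, 825 and 379 to 5719, 9596 and 5901, an 11.2-fold rise (3.49 ± 0.27 SE, adjusted p = 1.09e-06). Prg4, lubricin of joints and connective tissue surfaces, rose from 326, 329 and 538 to 3889, 1818 and 3422 (2.90 ± 0.38 SE, adjusted p = 6.46e-05). Both rises were of like size with length correction (3.51 and 2.82). Other genes among the 12 that rose most were Gh, Arfgef3, Hydin, Ksr2, Hs6st3, Klk6, Cit and Ttn. Arfgef3, Hydin, Ksr2 and Ttn had smaller log2 fold changes with length correction, Ttn from 2.53 to 0.77 and Hydin from 2.79 to 2.05. Klk6, a myelin-associated protease, stood at 48.6, 194 and 664 at P14, and its call (adjusted p = 0.0289) was lost when any single library but P14 replicate 3 was left out (0.0581 to 0.142). Hs6st3, a heparan sulfate sulfotransferase, lost its call without P14 replicate 1 (0.0822) or adult replicate 3 (0.0523).

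Gh, pituitary growth hormone, stood at 49.6, 1.02 and 2.15 at P14 and at 591, 970 and 149 in the adult (6.01 ± 1.66 SE, adjusted p = 0.00946; 0.0868 with limma-voom). It reached 1239 in P21 replicate 2. Prl, the pituitary hormone prolactin, looked up because of that, was at 2.07 in P14 replicate 1 and listed at 0 in the others, and stood at 129, 186 and 142 in the adult libraries and 253 in P21 replicate 2. Pomc, Cga and Tshb, other pituitary hormone genes, were looked up as well. Pomc overlapped between the ages, at 47.6, 26.5 and 55.8 at P14 and 58.3, 68.9 and 42.5 in the adult. Cga was at most 1.03 at P14 and at 5.2, 15.3 and 4.86 in the adult. Tshb stood at 2.07, 3.06 and 1.07 at P14 and at 6.24, 5.47 and 3.65 in the adult. In P21 replicate 2 Pomc, Cga and Tshb were at 119, 35 and 5.14. Gh and Prl were both high in the same library of P21, and where this RNA came from was not tested. Cit, citron kinase, rose 6.18-fold, with 2.16 on the log2 scale after length correction.

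Genes of thyroid hormone action, which times cochlear maturation, included some of the clearest falls. Of 14 tested 7 fell and 4 rose, the rises dropping to 2 without P14 replicate 1. Dio2, the deiodinase that makes active hormone (chromosome 12, 90724552 to 90739037), went from 6473, 6642 and 9486 to 713, 510 and 744 (-3.52 ± 0.26 SE, adjusted p = 9.29e-07). Dio3, which inactivates the hormone, fell from 69.3, 37.8 and 42.9 to 4.16, 3.28 and 10.9, and Hr, a corepressor induced by the hormone, 2.65-fold. Thra, a thyroid hormone receptor, was among the rises, from 4331, 4901 and 6080 to 7601, 7037 and 8017 (0.58 ± 0.12 SE, adjusted p = 0.00208).

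Peripheral myelin transcripts were lower in the adult. Of 23 peripheral myelin genes 11 fell and 1 rose (median -0.74; 14 and 1 with length correction). Pmp22, a tetraspan protein of compact myelin (chromosome 11, 63128982 to 63159547), stood at 270417, 232622 and 221744 at P14 and at 58879, 60549 and 59083 in the adult (-2.02 ± 0.15 SE, adjusted p = 9.04e-07). Mal, a raft protein of myelin, fell 2.47-fold, Cd9, a tetraspanin, 2.58-fold, and Ncmap, a membrane protein of noncompact myelin, 3.05-fold. No adult library reached a P14 value for these 4 genes. Mbp, which central and peripheral myelin share, was at 215895, 271007 and 565350 at P14 and 192038, 153315 and 150585 in the adult; its call (adjusted p = 0.0206) was lost with quantile normalization (0.286), without P14 replicate 3 (0.0836) and without adult replicate 2 (0.0605) or 3 (0.0613). Cdh1, E-cadherin of noncompact myelin, rose 1.39-fold, a call lost with quantile normalization (0.0521).

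Among regulators of the Schwann cell fewer genes were called, a difference from the myelin list that was not tested. Sox10, the lineage factor, was at 6776 ± 320 and 6316 ± 771 (adjusted p = 0.432) and Egr2, the master factor of myelination, at 4398 ± 257 and 3674 ± 274 (adjusted p = 0.329; 0.0248 with only the ages compared in the fit). Of 16 Schwann cell transcription factors 3 rose and 2 fell (2 and 5 with length correction). Id2, an inhibitor of basic helix-loop-helix factors, fell from 8298, 7081 and 6252 to 3137, 2925 and 2860 (-1.27 ± 0.09 SE, adjusted p = 9.27e-07), and Pou3f2, a POU factor of the promyelinating stage, rose 1.64-fold. Of 15 genes of immature and nonmyelinating Schwann cells 5 rose and 1 fell, the rises becoming 3 without adult replicate 2 or adult replicate 3. Ngfr, the low-affinity neurotrophin receptor, rose from 4136, 4602 and 4242 to 7998, 8187 and 7972, and Ncam1, a cell adhesion molecule, 1.76-fold. Matn2, a matrilin of the endoneurium, fell 1.95-fold.

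Among neuregulins, a family of axonal signals to Schwann cells, Nrg2 and Nrg3 rose, and a pair of their ADAM proteases fell. Other neuregulins are not reported here. Nrg2 went from 63.1, 70.4 and 82.6 to 298, 203 and 280 (1.83 ± 0.26 SE, adjusted p = 0.000113) and Nrg3 from 338 ± 27.3 to 684 ± 37.7. Adam17, which cuts neuregulin at the axon surface, fell from 3656, 3852 and 4248 to 1977, 1900 and 2049 (-0.99 ± 0.12 SE, adjusted p = 3.42e-05), and Adam10, a related protease, 1.62-fold. In the list of 16 ligands, receptors, proteases and Lgi4 partners 8 rose and 4 fell. The 8 rises became 3 with length correction, 3 without P14 replicate 1, adult replicate 2 or the 4 libraries low in Eif2s3y, 4 without adult replicate 1 and 5 with quantile normalization.

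Lipid synthesis genes were lower in part. Of 23 cholesterol synthesis genes 13 fell and 1 rose (median -0.43; the same counts with length correction). Hmgcs1, an early enzyme of the pathway, fell from 24408, 24563 and 34496 to 17194, 15578 and 14457 (-0.81 ± 0.12 SE, adjusted p = 0.000115), Nsdhl 2.03-fold, Fdps 2.07-fold and Msmo1 1.73-fold. Srebf2, the transcription factor of the pathway, was the member that rose (0.45 ± 0.15 SE, adjusted p = 0.0204), a call lost with quantile normalization (0.0744), without P14 replicate 1 (0.0957) and without adult replicate 1 (0.0549) or 3 (0.0516). Of 19 genes of myelin lipid synthesis 10 fell and 4 rose. Ugt8a, which makes galactosylceramide, fell 2.28-fold, Cers2, a ceramide synthase, 1.62-fold and Elovl1, an elongase of very long chains, 1.92-fold, while Srebf1, the fatty acid regulator, rose from 5682, 6302 and 5520 to 9407, 11464 and 10638 (0.85 ± 0.11 SE, adjusted p = 5.31e-05). The rises became 2 with quantile normalization.

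Central glia could not be compared with the same precision. Mog, an oligodendrocyte surface protein, stood at 432, 1484 and 7532 at P14 and at 1589, 1084 and 995 in the adult, with the ages overlapping (adjusted p = 0.692). Aqp4, the astrocyte water channel, stood at 2435, 4547 and 19852 at P14 and at 9503, 6227 and 6900 in the adult (adjusted p = 0.727). Of 17 oligodendrocyte genes 1 fell (Ugt8a, shared with Schwann cells) and 0 rose; without P14 replicate 1 the falls were 5. Of 16 astrocyte and satellite glia genes Slc4a4 rose and Gja1 fell. Slc4a4 overlapped between the ages (adjusted p = 0.0339) and lost its call without any single library but P14 replicate 3 (0.0534 to 0.16), with edgeR (0.0666) and with length correction (0.169). The adjusted p of Gja1 was 0.0194 and became 0.0777 without P14 replicate 3, 0.0713 without adult replicate 2 and 0.0536 without adult replicate 3. Without P14 replicate 3, 5 of these 16 rose and 0 fell.

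Neuronal transcripts were higher in the adult. Of 24 spiral ganglion neuron markers 9 rose and 0 fell (median 0.42; 10 and 0 with length correction). Slc17a7, the vesicular glutamate transporter of type I neurons (chromosome 7, 45163921 to 45176139), stood at 16303, 18402 and 16699 at P14 and at 23635, 29535 and 26888 in the adult (0.64 ± 0.13 SE, adjusted p = 0.00135). Rbfox3, the nuclear protein NeuN, rose 1.76-fold and Map2, a dendritic microtubule protein, 1.99-fold. Of the neurofilament subunits Nefm rose 1.41-fold (adjusted p = 0.0422), a call lost without any single library but P14 replicate 3 (0.0686 to 0.124) and with quantile normalization (0.201). Nefl was at 52622 ± 4957 and 56695 ± 3794 (adjusted p = 0.677) and Nefh at 83595 ± 4408 and 108638 ± 3359 (adjusted p = 0.0781; 0.00339 with only the ages compared). The rises of single channel and synapse genes below can be read beside this median of 0.42.

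Markers of type I subtypes, which differ in spontaneous rate and threshold, were higher in part. Of 11, 6 rose and 0 fell (4 and 1 with length correction). Lypd1, a marker of one subtype, rose 1.57-fold (adjusted p = 0.00162; 0.0534 with length correction), while Calb2, a marker of another, was at 87152 ± 18492 and 109999 ± 20468 (adjusted p = 0.104; 0.012 with length correction and 0.0243 without adult replicate 1). The difference between them was not tested. Mdga1, an adhesion protein that restrains synapse formation, rose from 13882, 17629 and 15451 to 47077, 59299 and 56564 (1.79 ± 0.23 SE, adjusted p = 5.29e-05). Of 16 neuronal transcription factors 10 rose and 1 fell (median 0.65; 9 and 1 with length correction). Rxrg rose 1.72-fold, Esrrg, an oestrogen-related receptor, 1.86-fold and Tshz2 2.13-fold. Islr2, grouped with them as a neuronal membrane protein, fell 1.4-fold, a call lost without P14 replicate 2 (0.0548) or adult replicate 1 (0.0704).

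Before length correction, ion channels of firing had larger medians than the neuron markers, a difference that was not tested. With length correction only the median of potassium and HCN channels (0.56) lay above that of the neuron markers (0.43). Calcium channels then had 0.37 and sodium channels 0.27. Of 14 sodium channel genes 6 rose and 2 fell (median 0.73; 4 and 3, median 0.27, with length correction). Scn8a, the channel of mature nodes (chromosome 15, 100870645 to 101045938), went from 5430, 6619 and 6276 to 19930, 21745 and 20847 (1.77 ± 0.19 SE, adjusted p = 1.32e-05; 1.21 with length correction). Scn1a, a related neuronal channel, rose 1.88-fold, and the beta subunit Scn4b 2.06-fold. Scn3b, a beta subunit of immature neurons, fell from 633, 536 and 702 to 338, 221 and 244 (-1.23 ± 0.19 SE, adjusted p = 0.00024). Scn4a, the muscle channel, also fell, from at most 23.6 counts in any P14 library, a call lost with only the ages compared (0.0711) and without P14 replicate 2 (0.0779), P14 replicate 3 (0.106), adult replicate 2 (0.0949) or adult replicate 3 (0.0881).

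Of 27 potassium and HCN channel genes 16 rose and 0 fell (median 0.87; 14 and 0, median 0.56, with length correction). Kcnc1, a fast channel that shortens the action potential (chromosome 7, 46396468 to 46438704), went from 5964, 6736 and 6413 to 20151, 22884 and 21832 (1.76 ± 0.22 SE, adjusted p = 5.05e-05). Kcnt1, a sodium-activated channel, went from 2010, 3052 and 2587 to 8123, 7630 and 7935 (1.65 ± 0.17 SE, adjusted p = 1.09e-05). Hcn2, a pacemaker channel, rose 2.36-fold and Kcnab2, a beta subunit of axonal channels, 1.83-fold. Kcna1, the juxtaparanodal channel, was at 43337 ± 2988 and 50550 ± 1638 (adjusted p = 0.432; 0.0365 with only the ages compared). Of 21 calcium channel genes 14 rose and 1 fell (median 0.61; 11 and 2 with length correction). Cacna1a, the pore of presynaptic P/Q-type channels, rose from 1064, 1215 and 1308 to 3317, 3392 and 3327 (1.49 ± 0.24 SE, adjusted p = 0.000267), Cacng2 2.93-fold and Cacng7 2.22-fold, whereas the auxiliary subunit Cacna2d1 fell 1.42-fold.

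Nodes of Ranvier and their flanks gave one of the largest shares of rises among the lists examined. Of 25 genes 19 rose and 2 fell (median 0.90; 16 and 2, median 0.53, with length correction). Lgi1, a secreted synaptic and axonal ligand, went from 957, 1051 and 947 to 2028, 2503 and 2093 (1.16 ± 0.11 SE, adjusted p = 6.18e-06), Epb41l3, the paranodal scaffold 4.1B, rose 1.7-fold and Dlg4, the scaffold PSD-95, 1.89-fold. Epb41l2, a Schwann cell scaffold of the same family, fell 1.45-fold. Of 10 genes of the sodium-potassium pump and its regulators 4 rose and 1 fell, Fxyd6, a regulator of the pump (1.42-fold).

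In the list of matrix genes around nodes and cell bodies the link proteins Hapln1 and Hapln4 moved in opposite directions. Hapln1 is also a member of the cartilage list, where 11 of 17 genes fell. The part of cartilage in its fall was not tested. Hapln1, a link protein of hyaluronan, fell from 6592, 5845 and 5984 to 1929, 2078 and 1864 (-1.65 ± 0.10 SE, adjusted p = 2.36e-07), while Hapln4, its relative in neurons, rose from 5127, 5901 and 5178 to 10817, 13319 and 12487 (1.17 ± 0.22 SE, adjusted p = 0.000774). In the list of 16, 4 fell and 1 rose, the falls becoming 2 without P14 replicate 3. Tnc, tenascin-C, was among them, from 735, 660 and 1397 to 428, 171 and 174 (adjusted p = 0.0121; 0.0502 without P14 replicate 3).

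**Figure D4:**
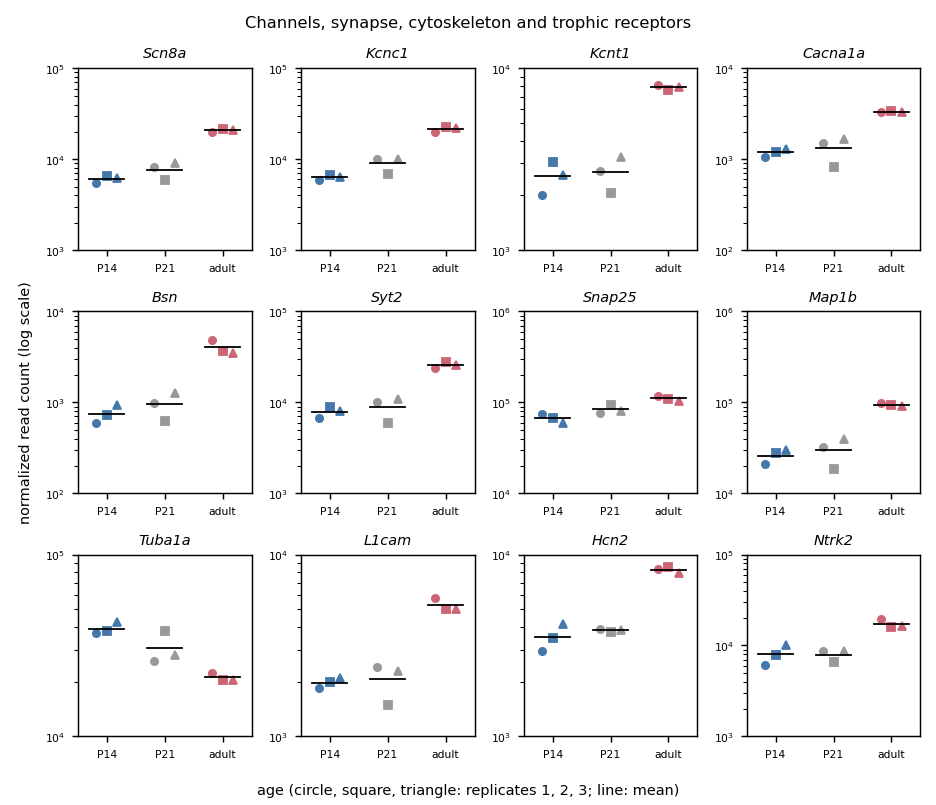
Normalized read counts (y axis, log scale) of 12 channel, synaptic, cytoskeletal and trophic genes at P14, P21 and adult (x axis), 1 symbol per library and a line at the mean. Every adult library lies above every P14 library except for Tuba1a, where every adult library lies below; Scn8a goes from a mean of 6108 at P14 to 20841 in the adult.

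Synaptic genes held the largest share of rises among the lists shown in the plot of calls per gene list. Of 27 genes of synaptic vesicles and release 21 rose and 1 fell (median 0.84; 20 and 2, median 0.67, with length correction). Bsn, bassoon of the active zone (chromosome 9, 108096022 to 108190383), went from 586, 734 and 936 to 4897, 3717 and 3493 (2.43 ± 0.27 SE, adjusted p = 2.06e-05; 1.69 with length correction). Pclo, its partner piccolo, rose 3.48-fold, or by 0.93 on the log2 scale with length correction. Syt2, the fast calcium sensor of release, went from 6793, 8845 and 7948 to 23867, 28000 and 25917 (1.73 ± 0.24 SE, adjusted p = 8.91e-05). Snap25, a SNARE protein, rose 1.66-fold. Stx1a, a syntaxin of the fusion machinery, fell from 415, 413 and 495 to 266, 219 and 214 (-0.92 ± 0.11 SE, adjusted p = 4.02e-05).

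Receptor genes on the neurons' input side were higher in part. Of 19 glutamate receptor subunits 10 rose and 0 fell (median 0.64; 7 and 0 with length correction), and 6 rose without adult replicate 1. Gria3, an AMPA receptor subunit, rose 1.74-fold, Grm7, a metabotropic receptor, from 919, 1025 and 911 to 1561, 2173 and 2023 (1.0 ± 0.12 SE, adjusted p = 4.03e-05), and the kainate subunits Grik4 2.38-fold and Grik5 1.46-fold. Of 13 GABA-A receptor and chloride transport genes 3 rose and 0 fell. The rises were 5 without P14 replicate 3, but 1 without any other single P14 or adult library, with only the ages compared, with edgeR or DESeq2 and with length correction. Gabra2 and Gabrb1, an alpha and a beta subunit, were among them, with overlapping ages and adjusted p of 0.0455 and 0.0467, and both lost their call under all of the alternatives that left 1.

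Of the growth and guidance genes 37.1% rose and 22.9% fell, beside 25.0% and 23.5% of all genes. Of 35, 13 rose and 8 fell (median 0.06). L1cam, an axonal adhesion molecule, rose from 1854, 1992 and 2094 to 5761, 5018 and 5020 (1.41 ± 0.17 SE, adjusted p = 3.81e-05), and Plxna4, a semaphorin receptor, 2.82-fold, or by 0.87 on the log2 scale with length correction. Marcksl1, an actin regulator of growing processes, fell from 5571, 5280 and 6904 to 2041, 2287 and 2432 (-1.39 ± 0.18 SE, adjusted p = 6.56e-05), Basp1, a growth cone protein, 1.57-fold, Dpysl3 1.66-fold and Nrp1, another semaphorin receptor, 1.51-fold. Gap43, the classic growth cone marker, was at 117, 139 and 273 and at 252, 76.6 and 79 (adjusted p = 0.326; 0.0166 without adult replicate 1). The 13 rises became 5 with length correction, 6 without P14 replicate 1 and 7 without the 4 libraries low in Eif2s3y.

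Of the tubulin and neurofilament genes 26.3% rose and 26.3% fell, near the 25.0% and 23.5% of all genes. Tuba1a, the main alpha tubulin of developing neurons, fell from 37237, 37792 and 42471 to 22383, 20550 and 20549 (-0.89 ± 0.12 SE, adjusted p = 7.48e-05) and Tubb6, a beta tubulin, 2.08-fold. Map1b went from 20791, 27482 and 29798 to 98681, 92770 and 91015 (1.87 ± 0.26 SE, adjusted p = 9.69e-05; 1.29 with length correction) and Map1a from 27429, 38986 and 39800 to 126903, 147363 and 144572 (2.0 ± 0.29 SE, adjusted p = 0.000131; 1.41 with length correction). In the list of 19, 5 rose and 5 fell; all 5 rises were microtubule binding proteins or Nefm, and all 5 falls were tubulins, a split noticed after the values were seen. The rises became 3 without the 4 libraries low in Eif2s3y.

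Of neurotrophin ligands and receptors 26.7% rose and 33.3% fell, beside 25.0% and 23.5% of all genes. The median log2 fold change of this list was 0.19, and 0.0 with length correction. Ntf3, neurotrophin 3, the main survival factor of these neurons in the cochlea, went from 76.5, 71.4 and 51.5 to 11.4, 23 and 15.8 (-1.96 ± 0.24 SE, adjusted p = 3.83e-05). Ntrk2, the receptor for brain-derived neurotrophic factor, rose from 6070, 7809 and 10078 to 19610, 16162 and 16545 (1.15 ± 0.19 SE, adjusted p = 0.000337; 0.73 with length correction). Ntrk3, the receptor for neurotrophin 3, was at 2184 ± 242 and 3771 ± 120 (0.79 ± 0.12 SE, adjusted p = 0.00014), but with length correction its change was -0.06 (adjusted p = 0.741). Gfra2, a receptor for neurturin, fell 2.33-fold. Of 15 genes 4 rose and 5 fell, the other falls being the ligands Cntf, Gdnf and Ntf5.

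Macrophage transcripts were lower in the adult. Of 25 macrophage and microglia genes 17 fell and 0 rose (median -0.79; 18 and 0 with length correction). Tmem119, a marker of microglia that bone cells also make, fell from 2170, 1710 and 3186 to 522, 549 and 557 (-2.07 ± 0.21 SE, adjusted p = 8.11e-06). C1qa, a chain of the first complement component made by macrophages, fell from 1713, 1471 and 2206 to 890, 686 and 789 (-1.18 ± 0.17 SE, adjusted p = 0.000129), C1qc 2.59-fold, Mrc1, the mannose receptor, 2.74-fold and Adgre1, the marker F4/80, 2.79-fold. Cx3cr1, the fractalkine receptor, was at 1140, 1143 and 1655 and at 1047, 719 and 831 (adjusted p = 0.0101; 0.0511 without adult replicate 2). The bone, marrow and macrophage lists were lower together, and the part of marrow or bone macrophages in this fall was not tested.

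Complement genes, a list that includes the C1q chains, went both ways. Of 18, 8 fell and 2 rose, the falls becoming 5 without the 4 libraries low in Eif2s3y. C4b, of the classical pathway (chromosome 17, 34728381 to 34743897), rose from 242, 436 and 449 to 1531, 1568 and 1310 (2.02 ± 0.24 SE, adjusted p = 3.24e-05). C3 rose from 145, 56.1 and 122 to 634, 210 and 265, a call lost without P14 replicate 2 (adjusted p = 0.0818) or adult replicate 1 (0.0863). C3ar1, the receptor of a C3 fragment, fell 2.47-fold. Of 9 class II genes Cd86, a costimulatory molecule, fell 3.29-fold, Cd80 also fell, and H2-DMa, which loads peptide, rose 1.67-fold. Cd80 overlapped between the ages (adjusted p = 0.0356) and lost its call with edgeR (0.0941) and without P14 replicate 1 (0.0998), P14 replicate 2 (0.101), adult replicate 2 (0.118) or adult replicate 3 (0.154). Of 12 class I genes 1 rose (Tap2, 1.05 on the log2 scale, adjusted p = 0.00533; 0.0602 without the 4 libraries low in Eif2s3y) and 0 fell, and H2-K1 was at 873 ± 290 and 999 ± 70.7 (adjusted p = 0.533); reads of H2 genes may be shared among paralogs.

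Interferon-stimulated genes were higher in the adult. Stretches of promoter are printed here and below because they hold a motif known for the gene group described: for the interferon group the interferon-stimulated response element, searched as GAAA, any 2 bases and GAAA on both strands, overlapping matches included, in the 250 bases before the start. Capitals mark the motif, here on the opposite strand, in RefSeq sequence of build GRCm38.p6. The Ifit3 stretch is chr19:34583364-34583433 and the Ifit1 stretch chr19:34640771-34640830, both on the + strand.
Ifit3: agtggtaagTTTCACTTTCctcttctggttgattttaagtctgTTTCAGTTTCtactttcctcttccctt
Ifit1: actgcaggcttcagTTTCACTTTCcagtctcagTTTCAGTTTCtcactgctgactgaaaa
Each holds the motif at 2 places. Of 27025 genes with a RefSeq promoter 936 (3.46%) held it, against 7 of 17 matched members of the list and 4 of the 8 matched members that rose. A match is a description of these letters only.

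Of the 25 interferon response genes 11 rose and 0 fell (median 0.49; 13 and 0 with length correction). Ifit3, an RNA-binding antiviral protein (chromosome 19, 34583529 to 34588982), stood at 423, 349 and 530 at P14 and at 1201, 1777 and 1712 in the adult (1.85 ± 0.30 SE, adjusted p = 0.000331). Ifit1 went from 426, 437 and 379 to 1002, 1628 and 1507 (1.71 ± 0.29 SE, adjusted p = 0.000384), and Irf7, the amplifying transcription factor, from 128 ± 9.16 to 346 ± 126. The count of 11 became 7 without P14 replicate 2, 6 without adult replicate 2 and 3 without the 4 libraries low in Eif2s3y. Of 10 interferon-inducible GTPases 1 rose, Tgtp1 (2.29-fold), which has a near copy; with only the ages compared in the fit 5 did.

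**Figure D5:**
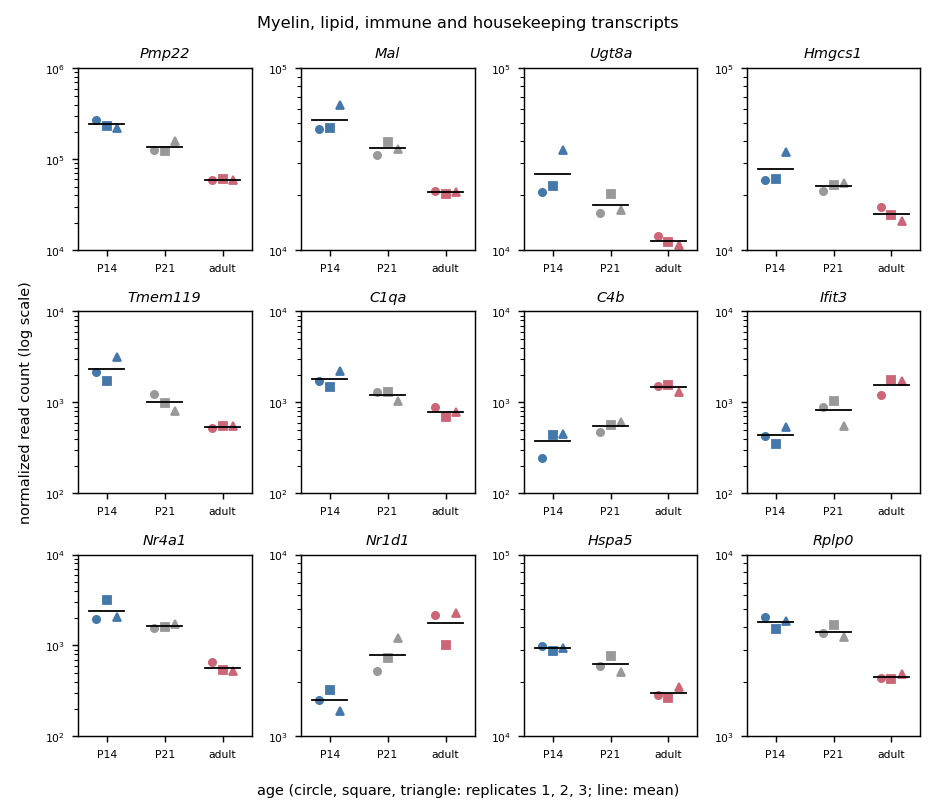
Normalized read counts (y axis, log scale) of 12 myelin, lipid, immune and general genes at P14, P21 and adult (x axis), 1 symbol per library and a line at the mean. C4b, Ifit3 and Nr1d1 lie higher in every adult library than in every P14 library and the other 9 genes lower; Pmp22 goes from a mean of 241594 at P14 to 59504 in the adult.

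Transcripts of dividing cells were scarcer in the adult. Of 29 cell cycle genes 20 fell and 0 rose (median -0.93; 18 and 0 with length correction). Bub1b, a spindle checkpoint kinase, went from 122, 56.1 and 105 to 13.5, 16.4 and 12.2 (-2.60 ± 0.41 SE, adjusted p = 0.000249), Ccnb1, the mitotic cyclin, from 66.2, 23.5 and 42.9 to 4.16, 6.56 and 1.22, and Cenpf, a kinetochore protein, fell 4.45-fold. Bub1b and Ccnb1 were highest in P14 replicate 1, which also held the highest P14 values of Cd79b (222) and Hbb-bs (8146), and the part of marrow cells in this fall was not tested. Uhrf1, which brings Dnmt1 to replicating DNA, fell from 249, 75.5 and 138 to 28.1, 27.3 and 14.6, whereas Dnmt1, the maintenance DNA methyltransferase, rose from 2009, 1953 and 1947 to 3137, 3328 and 3420 (0.74 ± 0.14 SE, adjusted p = 0.000991). Tet1, which oxidizes the mark, fell 1.85-fold; of 15 genes of this list 3 rose and 6 fell.

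Growth genes under imprinting fell at the H19 and Igf2 locus. H19, a noncoding RNA (chromosome 7, 142575530 to 142578146), went from 7047, 5293 and 8060 to 720, 545 and 610 (-3.43 ± 0.15 SE, adjusted p = 1.48e-08), and Igf2, a growth factor, from 26784, 29034 and 40049 to 20752, 12036 and 22150 (-0.83 ± 0.20 SE, adjusted p = 0.00443). Grb10, an inhibitor of growth factor signalling, fell 2.4-fold. Of 16 imprinted genes 3 fell and 4 rose, and of 15 genes of a fetal growth programme 6 fell and 4 rose; in both lists 2 rises were left with length correction.

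Cytosolic ribosomal protein genes fell almost without exception, by small amounts. Of 21, 20 fell and 0 rose (median -0.57; 16 and 0, median -0.32, with length correction), the falls becoming 14 without P14 replicate 1. Rplp0 went from 4512, 3903 and 4300 to 2104, 2081 and 2212 (-0.99 ± 0.08 SE, adjusted p = 2.15e-06), Rpsa fell 1.65-fold and Rpl3 1.6-fold. Their transcripts are short, and pseudogenes may share their reads. In the list of heat shock and unfolded protein genes, the falls included chaperones of the endoplasmic reticulum, a subset noticed after the values were seen. Hspa5, the chaperone BiP, fell from 31394, 29617 and 30796 to 16826, 16282 and 18623 (-0.83 ± 0.08 SE, adjusted p = 5.07e-06), Calr 1.75-fold and Pdia4 1.74-fold. Among cytosolic heat shock genes Hspa1a rose from 359, 350 and 329 to 623, 768 and 831 (1.09 ± 0.16 SE, adjusted p = 0.000165) and Hsph1 1.5-fold, while Hspa8 fell. In that list of 17, 8 fell and 5 rose, the rises becoming 3 without adult replicate 3.

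Energy genes depended on the treatment of length. Of 27 respiratory chain genes 3 rose and 5 fell, but 10 rose and 2 fell with length correction, and the falls were 12 with quantile normalization, 1 without P14 replicate 1 and 2 without any 1 adult library. Uqcrc1, a core protein of complex III, rose from 8694, 8715 and 8714 to 11843, 11919 and 11878 (0.45 ± 0.06 SE, adjusted p = 8.87e-05) and Sdha, of complex II, 1.27-fold, while Ndufs8, of complex I, fell 1.41-fold. Of 23 genes of glycolysis and lactate transport 8 rose and 2 fell (5 and 4 with quantile normalization). Hk1, a hexokinase of neurons, rose 1.78-fold, Slc2a3, their glucose transporter, 1.64-fold and Pfkm 1.43-fold, whereas Ldha, a lactate dehydrogenase subunit, fell from 6576, 5804 and 6274 to 2951, 2940 and 2860 (-1.09 ± 0.14 SE, adjusted p = 4.19e-05).

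Genes induced within minutes by activity or by handling were lower in the adult. Of 16 immediate early genes 10 fell and 2 rose (median -0.77; 10 and 3 with length correction). Nr4a1, an orphan nuclear receptor, went from 1963, 3144 and 2053 to 655, 539 and 519 (-2.04 ± 0.17 SE, adjusted p = 1.9e-06), Egr3, a zinc finger factor, from 688, 668 and 704 to 180, 119 and 126, and Ier2 and Btg2 fell 2.28-fold and 2.12-fold. The rises were Jun (adjusted p = 0.0431) and Atf3 (adjusted p = 0.0199), which Schwann cells and neurons induce on injury. Neither was called without P14 replicate 1, without adult replicate 2 or without the 4 libraries low in Eif2s3y, and Jun was also not called without P14 replicate 2, P14 replicate 3 or adult replicate 3. Of 15 glucocorticoid targets 9 fell and 1 rose. The rise was Zbtb16 (adjusted p = 0.0476), not called when any single P14 or adult library was left out (0.0504 to 0.175). Sgk1, a stress kinase, fell from 14999, 15734 and 13650 to 5020, 6868 and 5519 (-1.36 ± 0.18 SE, adjusted p = 7.61e-05), Tsc22d3 1.83-fold and Cdkn1a, an inhibitor of the cell cycle, 2.48-fold. The time of day and the handling of the mice are not given in the sources used here and cannot be told apart from age. Of 13 genes of senescence and DNA damage, which include Cdkn1a, 8 fell and 1 rose (Zmat3).

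Circadian clock genes changed in both directions. The Ciart stretch is chr3:95882259-95882352, read on the - strand, with the E-box CACGTG, the motif that the clock activators bind, in capitals (RefSeq, GRCm38.p6).
Ciart: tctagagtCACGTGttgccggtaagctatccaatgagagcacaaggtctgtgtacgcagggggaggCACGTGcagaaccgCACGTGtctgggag
It holds the motif at 3 places. Of 27025 genes 1854 (6.86%) held it in the 250 bases before the start, against 5 of 17 matched clock members, 3 of the 8 that rose and 0 of the 4 that fell. Ciart, a repressor of the clock chosen here for its sequence, stood at 204, 212 and 243 at P14 and at 363, 453 and 292 in the adult (0.73 ± 0.20 SE, adjusted p = 0.00882). Of 20 clock genes 11 rose and 4 fell, the falls becoming 2 when P14 replicate 1, 2 or 3 or adult replicate 1 was left out. Nr1d1, a repressor of the clock, rose from 1582, 1790 and 1387 to 4676, 3175 and 4795 (1.39 ± 0.17 SE, adjusted p = 4.19e-05), Nr1d2 1.45-fold and Bhlhe41 1.9-fold, while Arntl, the activator it represses, fell from 910, 898 and 906 to 511, 319 and 716 (-0.89 ± 0.20 SE, adjusted p = 0.00323) and Rorb 2-fold.

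For the remaining lists of other cell types only the counts are given, with a few members. Of 19 endothelial genes 6 fell and 3 rose, of 13 pericyte and smooth muscle genes 4 fell and 0 rose, and of 17 genes of the stria vascularis and melanocytes 3 rose and 1 fell. Of 16 meningeal and choroid genes 4 fell and 3 rose (5 and 6 with length correction, 5 and 5 without P14 replicate 3); Ttr, transthyretin of the choroid plexus, had a log2 fold change of 0.87 (adjusted p = 0.0847). Of 6 adipocyte genes Fabp4 and Pparg fell, calls lost with limma-voom (0.0671) and with the replicate block (0.0655) respectively. Of 13 skeletal muscle genes 0 fell and 2 rose, Ttn and Neb, both very long transcripts.

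The P21 libraries were set beside the others to see where in this interval the changes lay. They enter both the step from P14 to P21 and the step from P21 to adult, so these are given as values side by side. Osteoblast and bone matrix genes had a median of -1.46 over the first step and -1.40 over the second, and peripheral myelin genes -0.51 and -0.23. Oc90 passed through 37.4, 30.8 and 47.9 and Pmp22 through 128064, 123740 and 159571. For potassium and HCN channels, synaptic genes and nodal genes the medians were near 0 over the first step and positive over the second. Potassium and HCN channels had medians of -0.06 and 0.95, synaptic genes -0.02 and 0.93 and nodal genes 0.00 and 0.90; without P21 replicate 2, the library that stood furthest apart in the length pattern (rho -0.46), these were 0.10 and 0.82, 0.12 and 0.77, and 0.16 and 0.57. Other neuronal lists differed in this: type I subtype markers had 0.32 and 0.33, neurotrophin genes 0.00 and -0.04 and pump genes 0.17 and -0.14. Kcnc1, for example, was at 9991, 6904 and 10142 at P21, and Scn8a at 8176, 5858 and 9134, below every adult library. Erythroid genes had medians of 1.58 and -3.42 and cell cycle genes 0.21 and -0.96, so that their fall lay after P21 in these libraries.

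A test of the second step minus the first called 2150 genes positive (12.9%) and 1798 negative (10.8%), with the same limma fit and adjustment. Among genes called in both tests the largest positive values were those of Insrr, an insulin receptor relative, Gabbr2, a GABA-B receptor subunit, Ssh1, an actin phosphatase, Shank1, a postsynaptic scaffold, and Tenm2, a teneurin. Gabbr2 stood at 1653 ± 352 at P14, at 2014, 550 and 2175 at P21 and at 5417 ± 927 in the adult, and Shank1 at 1328 ± 311, at 1636, 558 and 1916 and at 5050 ± 216. The lowest were Hbb-bs, Hba-a2, Slc4a1, Mki67 and Hbb-b1, of red cells and dividing cells. Without the 4 libraries low in Eif2s3y only P21 replicate 3 remained at P21, so no count of that fit is given. The test leaned on single libraries: without P21 replicate 2 it called 296 positive and 135 negative. With only the ages compared in the fit it called 162 and 74. Whether a gene changed before or after P21 is therefore given here as levels only.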

How the data were processed

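Total RNA of microdissected mouse auditory nerve was sequenced in 15 libraries, 3 per age, of which the P14 and adult libraries are compared here. The authors deposited 1 table of signal values, normalized read counts per gene. The submitters' processing notes name Partek, TopHat2, DESeq2 and the mm10 build; versions and strand use are not given in the sources used here. Each library's values are whole reads divided by 1 size factor: 99.94% of positive values came out whole (tolerance 0.1), which gave the depths.

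Genes that reached 10 normalized counts in 3 or more libraries were fitted as log2(value + 1) with limma 3.58.1 (R 4.3.3; 1 mean per age over all 15 libraries, empirical Bayes), with Benjamini-Hochberg adjustment over all 16723 genes and a threshold of 0.05. The change before and after P21 was compared by a contrast of the same fit. On the recovered reads edgeR 4.0.16 called 4006 genes higher and 4089 lower in the adult. Other alternatives were DESeq2 1.42.0, limma-voom, quantile and TMM scaling, other filters and pseudocounts, a replicate block, and leaving out libraries. Length correction subtracts, per library, a loess trend of deviations on log2 length of the longest GENCODE M21 transcript (16469 genes).

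The comparison and the 61 gene lists were chosen with earlier results of these data known. Genes were named by rule: the 12 largest rises and 12 largest falls among called genes whose ages did not overlap and whose higher age averaged at least 10 counts per 1000000, for each list the members of smallest adjusted p (at most 4), members against their list's direction, the 5 largest and 5 smallest of the contrast, and a preset set. Members named to complete a count of 5 or fewer, Prl, Pomc, Cga, Tshb and Ciart were chosen after their values were seen. Coordinates are those of GENCODE M21 on mm10, promoters those of RefSeq. Counts of near-identical genes, such as globins, H2 and ribosomal protein genes, may be shared. Some genes that the rule names are not reported here.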

Additional observations from a re-analysis of the deposited data

How the results depend on the processing

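The number of genes higher and lower in the adult stayed within 1.5 times of 4180 and 3936 under every alternative run but a test against a minimal log2 fold change of 1, which called 29 and 210. Leaving out each library in turn gave 3317 to 3908 higher and 3098 to 3659 lower. Of 233 named genes, 188 kept their call in every alternative other than that test.

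The contrast of the change after P21 with the change before it was not stable. It called 2150 genes positive and 1798 negative, against 1290 positive with quantile normalization. The counts were 162 and 74 with only the ages compared, and 1172 and 1049 with length correction. The fit without the 4 libraries low in Eif2s3y left 1 library at P21, and its counts are not given. Leaving out each library in turn gave 296 to 2950 positive and 135 to 2254 negative. The positive share was 54.5%, but 43.1% with quantile normalization and 68.6% with only the ages compared; the cause was not tested.

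Deviations of same-numbered P14 and adult libraries correlated at -0.062, 0.319 and -0.229, and those of unlike-numbered libraries at -0.369 to 0.385. With 3 libraries per age these values cannot decide whether the replicate numbers pair the samples. With the replicate number as a block, 4114 genes were higher and 3509 lower in the adult, and the contrast called 0 positive and 0 negative (limma; 5007 genes at an unadjusted p under 0.05 in either direction).

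Among named genes the direction turned for Aqp4 (-0.26 with edgeR, -0.25 with DESeq2, -0.36 to 1.16 when each library was left out, -0.30 without the 4 libraries), Coch (0.00 with quantile normalization), H2-K1 (-0.04 to 0.47 when each library was left out, lowest without P14 replicate 3), Mog (-1.48 to 0.58, highest without P14 replicate 3) and Ntrk3 (-0.06 with length correction); of these only Ntrk3 was called. Fasn and Atp5b, which the rule names but which are not reported above, were called and turned as well. Fasn was at -0.03 with length correction and Atp5b at -0.07 with quantile normalization. Depth limits genes with a few reads in the adult, such as Oc90.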
